A study of Mus musculus with 6 samples.

Results

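A set of granulosa and theca cell genes of inhibin, gonadotropin and steroid biology was followed in mouse oocytes at the germinal vesicle stage, the stage before meiosis resumes. They were taken by symbol from the authors' deposited table, which held values for all 10 among its 10896 genes. They comprised the inhibin and activin subunits Inhba and Inha, the follicle stimulating hormone receptor Fshr, the transcription factors Gata4, Nr5a2 and Runx2, and the steroid enzymes Cyp11a1, Hsd3b1, Hsd17b1 and Cyp19a1. All oocytes came from (C57BL x CBA) F1 females, and the 6 samples held 50 oocytes each. In the 3 in vitro samples, follicles freed with collagenase from ovaries of females 10 to 12 days old had been cultured on membrane inserts in a medium that held follicle stimulating hormone, fetal bovine serum and a mix of insulin, transferrin and selenium. In the 3 in vivo samples, oocytes had been released by needle from ovaries of females 7 to 11 weeks old, into M2 medium with dbcAMP, a cell-permeable form of cyclic AMP. Culture, donor age and collection medium go together in these groups and cannot be told apart.

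In the follicle, follicle stimulating hormone acts on a receptor of granulosa cells and raises cyclic AMP. These cells answer with inhibin, a dimer of an alpha subunit (Inha) and a beta subunit (such as Inhba), while beta subunits alone form activin. Theca cells start steroid synthesis from cholesterol, and granulosa cells turn androgen into estrogen with aromatase. In a pool of oocytes, RNA made by the oocyte and RNA of a few attached follicle cells cannot be told apart, and neither can more such cells and more RNA per cell.

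The authors' deposited table gave 1 mean of normalised reads per gene and group, which carries no spread. Each mean is a sum over 3 libraries of whole reads times 1 fixed step per library, and whole reads were recovered from it for 5804 genes with means up to 200, the 10 members among them. The libraries were called A, B and C within each group by the size of that step, and none could be matched to a numbered replicate. They held between 288508 and 431515 recovered reads. No label tells whether each sample had its own cultures or animals, so p-values measure the spread between samples only, which may be technical. The fewest recovered reads of any gene were 33 over the 6 libraries. Fshr had 45, Hsd17b1 47 and Cyp11a1 51, so these 3 lay close to the lowest values that the table lists. In every listed gene the larger group mean was at least 6.74 normalised reads. The in vivo means of Inhba, Fshr, Hsd3b1 and Hsd17b1 were 2.69, 2.45, 3.34 and 2.85, so only their in vitro means reached that level.

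Promoters of 8 members were found in RefSeq (build GRCm38.p6), in 12 windows because some genes have several starts. Those of Inhba, Inha, Hsd3b1 and Fshr are shown, since these genes had large differences and could all be matched to a single start. Each run gives the 250 bases before the start, 5′ to 3′ on the gene's strand, and capitals mark a match to any of the motifs named after it.
Inhba, chr13:16011601-16011850, plus strand: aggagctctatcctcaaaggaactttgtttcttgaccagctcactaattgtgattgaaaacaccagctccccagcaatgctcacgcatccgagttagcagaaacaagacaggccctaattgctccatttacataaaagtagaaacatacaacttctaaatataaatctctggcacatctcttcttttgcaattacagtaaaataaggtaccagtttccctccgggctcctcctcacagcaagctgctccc
Inha, chr1:75507359-75507608, plus strand: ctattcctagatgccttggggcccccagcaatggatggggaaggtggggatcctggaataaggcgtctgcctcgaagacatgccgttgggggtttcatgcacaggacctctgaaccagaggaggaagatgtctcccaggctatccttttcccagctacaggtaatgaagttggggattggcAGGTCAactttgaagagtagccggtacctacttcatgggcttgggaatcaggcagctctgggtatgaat
Hsd3b1, chr3:98859795-98860044, minus strand: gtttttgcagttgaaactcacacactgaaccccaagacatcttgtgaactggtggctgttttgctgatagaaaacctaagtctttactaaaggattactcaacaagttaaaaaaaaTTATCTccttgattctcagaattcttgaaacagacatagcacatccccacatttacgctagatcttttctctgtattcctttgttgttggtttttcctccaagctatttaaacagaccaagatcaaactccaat
Fshr, chr17:89200676-89200925, minus strand: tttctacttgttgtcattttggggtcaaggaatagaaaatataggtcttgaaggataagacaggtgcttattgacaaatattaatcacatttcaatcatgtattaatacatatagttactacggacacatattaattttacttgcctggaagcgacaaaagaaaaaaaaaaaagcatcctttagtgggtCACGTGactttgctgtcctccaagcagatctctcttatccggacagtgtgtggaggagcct

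Both strands were searched for 6 motifs. AGGTCA is the core bound by many nuclear receptors, the family of Nr5a2. GATA factors, the family of Gata4, bind AGATAA, the motif as it is most often written. These factors also bind a variant with a different opening base, TGATAA. RUNX factors, the family of Runx2, bind the letters TGTGGT. The core of the element through which cyclic AMP acts on genes is TGACG. The E-box, bound by factors of the helix-loop-helix family, is CACGTG. No motif overlapped another in the 4 runs shown. Inha held AGGTCA starting 69 bases before its start, and 14.0% of all 32851 promoter windows of this length hold that motif. Hsd3b1 held AGATAA on the opposite strand, 134 bases before its start, a motif in 9.99% of windows. Fshr held the E-box 61 bases before its start, a motif in 6.02% of windows. Inhba held none of the 6 motifs in this window. Of the 12 windows of the members, 5 held the nuclear receptor core AGGTCA and 2 held the GATA motif AGATAA. The RUNX motif was in 2 member windows and in 14.0% of all windows. The GATA variant was in 1 member window and in 7.94% of all windows. The cyclic AMP core was in 1 member window and in 17.8% of all windows. These matches describe letters and say nothing of binding.

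Inhibin and activin subunits were the members with the lowest adjusted p by limma voom, and both were higher in vitro. A transcribed pseudogene, B230303A05Rik, overlaps Inhba in RefSeq, and strand is not given, so whether all its reads came from Inhba was not tested. Inhba, the beta A subunit, had 72, 55 and 46 reads in the in vitro libraries and 0, 4 and 4 in the in vivo libraries, always in the order A, B, C. After scaling, the lowest in vitro library stood at 57.0 normalised reads and the highest in vivo library at 4.52, so the groups lay far apart. The mean was 60.1 ± 5.27 (SD, n = 3 libraries) normalised reads in vitro and 2.69 ± 2.38 (SD, n = 3 libraries) in vivo, a 22.4-fold difference. Limma voom gave a log2 change of 4.91 with an SE of 0.81 and an adjusted p of 0.00514, and the authors' deposited table listed a posterior probability of equal expression of 0. The 8 in vivo reads set how large the fold is, since it was 33.9 without in vivo library C and 14.9 without in vivo library A.

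Inha, the alpha subunit that makes a dimer an inhibin, had 93, 118 and 66 reads in the in vitro libraries and 43, 32 and 21 in the in vivo libraries. All 3 in vitro libraries were above all 3 in vivo ones, with 81.9 normalised reads in the lowest of the former and 34.8 in the highest of the latter. Its mean was 96.6 ± 22.4 (SD, n = 3 libraries) normalised reads in vitro and 28.9 ± 5.55 (SD, n = 3 libraries) in vivo, or 3.34-fold higher in vitro. The log2 change was 1.70 with an SE of 0.30 (limma voom, adjusted p = 0.00701), and the deposited probability of equal expression was 1.76e-09 in the authors' deposited table. The calls of Inhba and Inha held when any of the 6 libraries was left out, with adjusted p up to 0.0332 for Inhba and 0.0445 for Inha by limma voom. Per kb of gene length, the mean level of Inhba was 39.3 normalised reads in vitro beside 66.0 for Inha, while in vivo it was 1.76 beside 19.8.

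**Figure D1:**
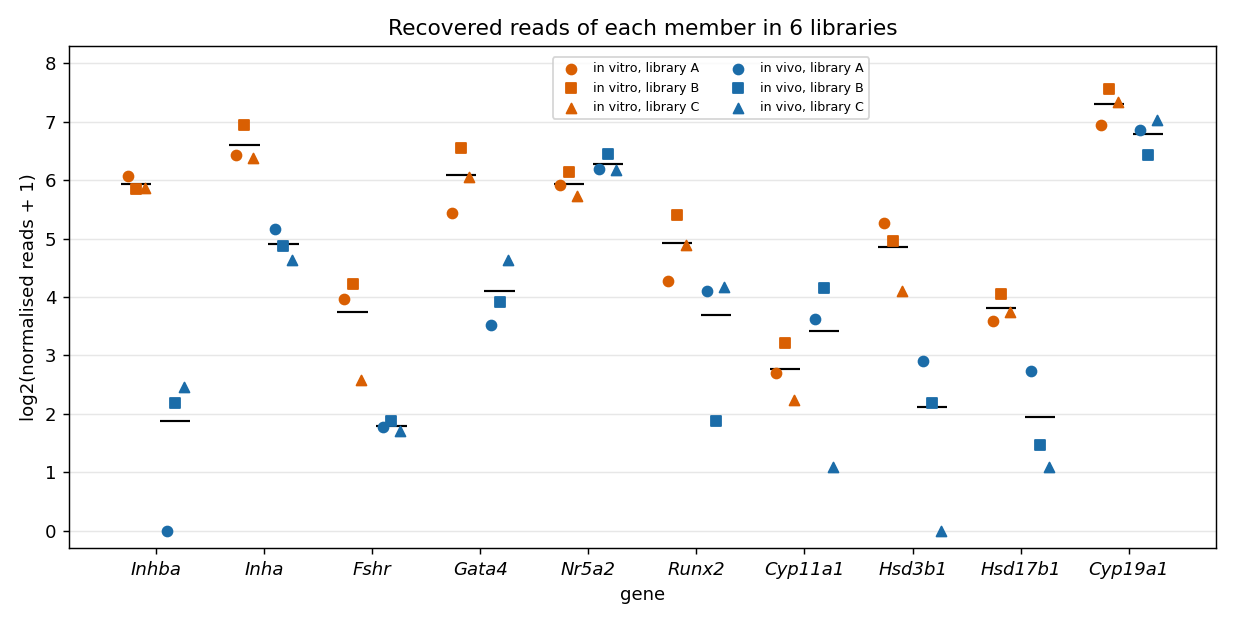
Normalised reads of each of the 10 members in the 6 libraries, on a log2(value + 1) axis; orange symbols are in vitro and blue symbols in vivo libraries, and black lines are group means. The in vitro points of Inhba, Inha, Fshr, Gata4, Runx2, Hsd3b1 and Hsd17b1 all lie above their in vivo points, while those of Cyp11a1 and Cyp19a1 overlap.

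Fshr, the receptor through which follicle stimulating hormone acts, was among the least abundant members. It had 16, 17 and 4 reads in the in vitro libraries and 3, 3 and 2 in the in vivo libraries. Library C of the in vitro group was low, at 4.96 normalised reads against 14.7 and 17.6 in libraries A and B, yet above the highest in vivo library at 2.66. The mean of 12.4 ± 6.63 normalised reads in vitro was 5.08-fold that of 2.45 ± 0.20 in vivo (SD, n = 3 libraries each). The authors' deposited table called it, with a probability of equal expression of 0.00826. Limma voom on recovered reads did not (log2 change 2.06, SE 0.81, adjusted p = 0.118), and its 95% interval ran from 0.36 to 3.76.

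Of the transcription factors, Gata4 was higher in vitro by both calls, while Runx2 and Nr5a2 passed neither. Gata4, a zinc finger factor of granulosa and theca cells that acts on steroid and inhibin genes, had 46, 90 and 53 reads in the in vitro libraries. Its in vivo libraries had 13, 16 and 21 reads. The lowest in vitro value of 42.3 normalised reads exceeded the highest in vivo value of 23.7. Mean levels were 67.1 ± 25.5 (SD, n = 3 libraries) normalised reads in vitro and 16.1 ± 6.82 (SD, n = 3 libraries) in vivo, a 4.16-fold difference with a log2 change of 2.07 and an SE of 0.42 (limma voom, adjusted p = 0.0137). The probability of equal expression in the authors' deposited table was 0.000213. The limma voom call was lost without in vitro library C (adjusted p = 0.0634), without in vivo library A (adjusted p = 0.0859) or without in vivo library B (adjusted p = 0.0678).

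Runx2, a runt domain factor that granulosa cells turn on around ovulation, had 20, 40 and 23 reads in the in vitro libraries and 20, 3 and 15 in the in vivo libraries. The protein-coding gene Supt3 overlaps Runx2 in RefSeq, with 142 mean normalised reads in vitro and 107 in vivo beside 29.5 and 11.9 for Runx2. Strand is not given, and whether reads of Supt3 were counted in Runx2 was not tested. The groups nearly met, at 18.4 normalised reads in in vitro library A and 16.9 in in vivo library C, and in vivo library B stood alone at 2.66. The in vitro mean was 2.47-fold higher, with a log2 change of 1.58 and an SE of 0.59 (limma voom, adjusted p = 0.104) and a probability of equal expression of 0.148 in the authors' deposited table. Without in vivo library B the log2 change was 0.73, and without in vitro library A the change passed (adjusted p = 0.0217, limma voom). Nr5a2, also named LRH-1, a nuclear receptor that drives steroid genes in granulosa cells, was the only member whose in vitro libraries all lay below its in vivo libraries. It had 65, 67 and 42 reads in vitro and 89, 97 and 63 in vivo. The groups nearly met, with a highest in vitro value of 69.5 and a lowest in vivo value of 71.2 normalised reads. How many of all genes lay apart in that direction was not counted, so nothing is read from it. The log2 change of Nr5a2 was -0.33 with a 95% interval from -0.87 to 0.20 (limma voom, adjusted p = 0.422).

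Among steroid enzymes, Hsd3b1 was higher in vitro by both calls, and Cyp11a1, Hsd17b1 and Cyp19a1 passed neither. Cyp11a1, which cuts the side chain of cholesterol in the opening step of the pathway, had 6, 8 and 3 reads in the in vitro libraries and 14, 19 and 1 in the in vivo libraries. The in vivo libraries ranged from 1.13 to 16.8 normalised reads and enclosed every in vitro value, so no direction could be read. Its log2 change was -0.35 with an SE of 0.83 (limma voom, adjusted p = 0.822). In the means of normalised reads it was 1.67-fold lower in vitro, and 0.939 times the in vivo level without in vivo library B.

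Hsd3b1, the dehydrogenase that makes progesterone from pregnenolone, had 41, 29 and 13 reads in the in vitro libraries and 8, 4 and 0 in the in vivo libraries. In vitro library C was the lowest of its group at 16.1 normalised reads and still above the highest in vivo library at 6.47. Mean levels were 28.0 ± 10.9 (SD, n = 3 libraries) normalised reads in vitro and 3.34 ± 3.24 (SD, n = 3 libraries) in vivo, an 8.38-fold difference. The log2 change was 3.44 with an SE of 0.88 (limma voom, adjusted p = 0.0340), and the probability of equal expression was 3.7e-06 in the authors' deposited table. The fold was 15.8 without in vivo library A and 5.59 without in vivo library C. The limma voom call was lost when any library but in vitro library A was left out, with adjusted p between 0.0750 and 0.116. Of the 50-base words in its transcripts, 4.86% also occurred in transcripts of 7 other genes, of which Gm12431 shared the most. That part was 5.66% for Runx2, 2.06% for Cyp11a1 and at most 0.537% for any other member. Hsd3b6, the neighbour and relative of Hsd3b1, had 17.9 mean normalised reads in vitro and 26.3 in vivo, with a probability of equal expression of 0.769 in the authors' deposited table.

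Hsd17b1, which turns estrone into estradiol, had 12, 15 and 10 reads in the in vitro libraries and 7, 2 and 1 in the in vivo libraries. The groups did not overlap, at 11.0 normalised reads in the lowest in vitro and 5.66 in the highest in vivo library. The in vitro mean was 4.55-fold higher, and 8.96-fold without in vivo library A, with a log2 change of 2.18 and an SE of 0.76 (limma voom, adjusted p = 0.0867). The authors' deposited table listed a probability of equal expression of exactly 1 for it, as it did for Nr5a2. The adjacent gene Naglu, a lysosomal enzyme gene 296 bases away in RefSeq build GRCm38.p6, was 10.1-fold higher in vitro by the means of the authors' deposited table. Whether reads of Naglu were counted in Hsd17b1 was not tested.

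Cyp19a1, aromatase, was the most abundant member and differed little. It had 133, 181 and 130 reads in the in vitro libraries and 143, 96 and 115 in the in vivo libraries. The groups overlapped, since in vitro library A stood at 122 normalised reads and in vivo library C at 130 (129.9). The mean was 157 ± 32.9 (SD, n = 3 libraries) normalised reads in vitro and 110 ± 22.9 (SD, n = 3 libraries) in vivo, 1.43-fold higher in vitro. The log2 change was 0.51 with a 95% interval from 0.03 to 0.99 (limma voom, adjusted p = 0.171), and the change passed only without in vitro library A (log2 change 0.70, adjusted p = 0.0280, limma voom).

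**Figure D2:**
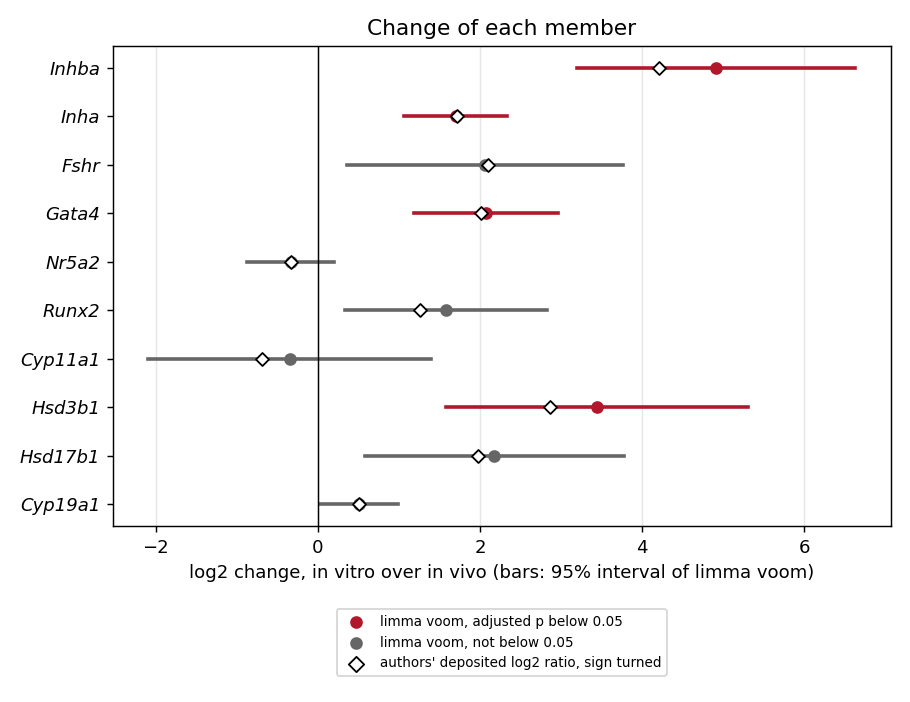
Log2 change of each member, in vitro over in vivo; filled points are limma voom estimates with 95% intervals, red where the adjusted p was below 0.05, and open diamonds are the authors' deposited ratios with their sign turned. Inhba (4.91), Hsd3b1 (3.44), Gata4 (2.07) and Inha (1.70) are red, and the intervals of Nr5a2 and Cyp11a1 include 0.

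By count, 5 of the 10 members passed as higher in vitro by the authors' deposited table, where a call means a probability of equal expression below 0.05, and 0 were called lower. Of all 10896 genes, 6.75% were called higher and 8.31% lower by that rule. Limma voom called 4 members higher, all of them also called in the deposited table, and 0 lower, while 8 members, all with positive changes, had an unadjusted p below 0.05, as did 14.9% of the 5804 genes in that direction. Of the 5804 genes with recovered reads, 3.55% were called higher and 2.83% lower by limma voom. In 7 members every in vitro library was above every in vivo library, against 16.3% of genes with recovered reads, and 7 members were at least 2-fold higher by their deposited means, against 6.55% of the table. The median log2 change was 1.85 over the members and 0.02 over all genes of the table. The members were chosen with earlier results of these data known, and 3 have read sums near the lowest of any gene. Inhba, Fshr, Hsd3b1 and Hsd17b1 reached the lowest larger mean of any gene (6.74 normalised reads) only in vitro. They may thus be listed through that group alone, which favours a higher level in vitro. These counts therefore describe the members and support nothing further. In vitro library B held the highest in vitro value of 8 members, and library C of 0, while in vivo the highest values were spread over A (3 members), B (3) and C (4). The same count over all genes was not made, so this pattern cannot be read as a trait of the members.

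Levels per kb of gene length put the members in a different order in each group. In vitro, Cyp19a1 at 66.2 ± 13.9 and Inha at 66.0 ± 15.3 normalised reads per kb led and overlapped, and Inhba followed at 39.3 ± 3.45, clear of both neighbours (SD, n = 3 libraries). Gata4 (19.8), Nr5a2 (16.6), Hsd3b1 (15.1) and Hsd17b1 (9.87 normalised reads per kb) came next, and adjacent genes among these overlapped. Hsd17b1, at 8.37 in its lowest library, was clear of Runx2, at 7.55 in its highest. Runx2, Fshr and Cyp11a1 were lowest, at 5.37, 5.27 and 3.29 normalised reads per kb. In vivo, Cyp19a1 again led, at 46.4 ± 9.66 normalised reads per kb (SD, n = 3 libraries), clear of Nr5a2 with 19.6 to 23.6, which overlapped Inha at 16.2 to 23.8. The other 7 members were at most 5.50 normalised reads per kb in vivo, the mean of Cyp11a1, and Inhba was ninth, at 1.76. That place is not resolved, since Inhba ranged from 0 to 2.95 and overlapped both Hsd3b1 and Fshr. For comparison, the oocyte growth factor gene Gdf9 stood at 20947 mean normalised reads per kb in vitro and 23889 in vivo in the authors' deposited table, far above every member.

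**Figure D3:**
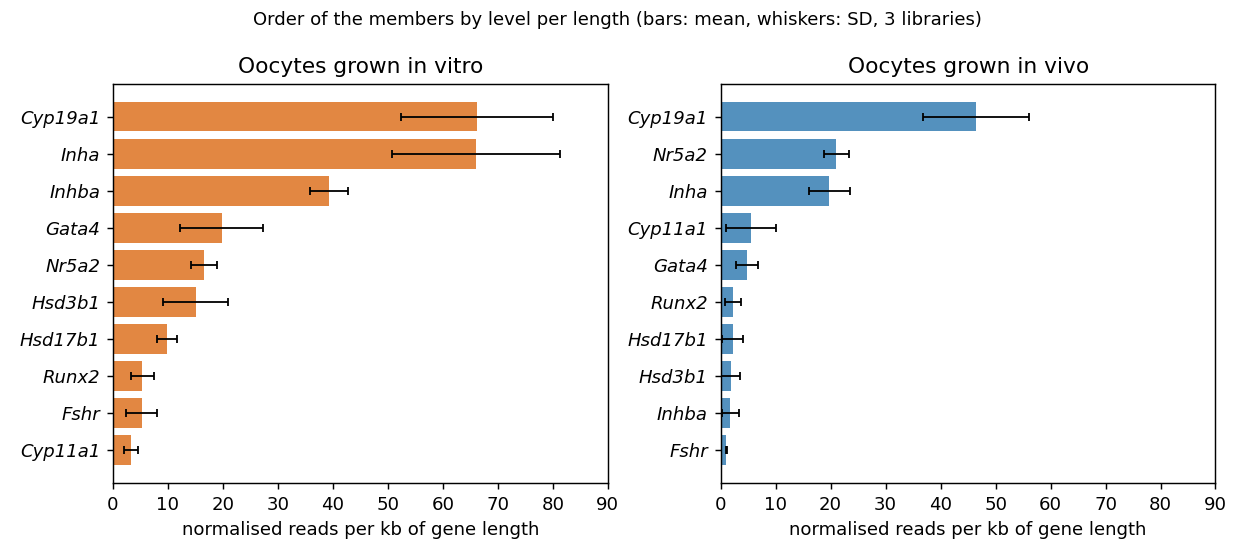
Mean normalised reads per kb of gene length for the members, ordered within each group, with SD over 3 libraries as whiskers. Cyp19a1 leads both panels, at 66.2 in vitro and 46.4 in vivo. Inhba moves from the third place in vitro to the ninth in vivo, where it overlaps both neighbours.

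Of the 57 measured genes on the 6 pathway lists, each counted once, the authors' deposited table called 4 higher (7.02%) and 7 lower (12.3%), beside 6.75% and 8.31% of all its genes, and the counts of single lists below are to be read against the same shares. Of 3 measured genes for other ligands and binding proteins of the family, 0 were called higher and 1 lower in vitro, the oocyte's own growth factor Bmp15 (by 1.76-fold, per the authors' deposited table). Of 14 measured receptors and Smads, the authors' deposited table called 0 higher and 2 lower: Tgfbr3, betaglycan, which helps inhibin bind, was 1.36-fold lower and Bmpr1b, a bone morphogenetic protein receptor, 1.53-fold lower. The activin receptors were not called, and Acvr2b had 21, 42 and 18 reads in the in vitro libraries and 18, 12 and 12 in the in vivo libraries (log2 change 1.03, SE 0.44, adjusted p = 0.152, limma voom). Acvr2a and Acvr1b had log2 changes of 0.23 (adjusted p = 0.702) and 0.59 (adjusted p = 0.297) by limma voom. Binding and ligand genes Fst and Inhbb were not analysed here.

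Of 16 measured genes of the cyclic AMP pathway, the authors' deposited table called 2 higher and 2 lower. Adcy9, an adenylyl cyclase, was 2.42-fold higher there, and limma voom did not call it (adjusted p = 0.0680). Atf1, a cyclic AMP responsive factor, was 1.98-fold higher, while Prkar2a and Prkar2b, regulatory subunits of protein kinase A, were lower by 1.31-fold and 1.32-fold, per the authors' deposited table. Of 6 measured genes that respond to follicle stimulating hormone, 1 was called higher and 1 lower: Ccnd2, a cyclin of granulosa cell growth, was higher by 2.53-fold, per the authors' deposited table, and the lower gene was Prkar2b again. Lhcgr, Star and 10 further genes of that list were not analysed here.

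Of 13 measured genes of steroid synthesis and steroid receptors beside the members, the authors' deposited table called 1 higher and 2 lower. Stard4, a sterol carrier, was 2.65-fold higher, Hsd17b4, a peroxisomal enzyme, 1.66-fold lower and Esr2, an estrogen receptor of granulosa cells, 1.31-fold lower. The median log2 change of this list was 0.12. Of 7 measured partners and relatives of the transcription factors, 0 were called in either direction, and the 3 named next were chosen after their values were seen. Gata6, the relative of Gata4 in granulosa cells, had a log2 change of 0.30 (adjusted p = 0.626, limma voom). Zfpm2, the Gata4 partner FOG2, had 6, 1 and 5 reads in the in vitro libraries and 17, 20 and 20 in the in vivo libraries, and limma voom gave a log2 change of -2.17, an SE of 0.72 and an adjusted p of 0.0734. Cbfb, the partner of Runx2, had a log2 change of -0.18 (adjusted p = 0.832, limma voom).

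Markers of the cell types that could have come with the oocytes were counted beside these results. Values were at hand for 9 of 22 further granulosa cell markers, and Amh, Foxl2, Nr5a1 and 10 others were not analysed here, so the defining markers of that cell type give no level. Of the 9, the authors' deposited table called 1 higher (Ccnd2) and 3 lower: Esr2, the adhesion gene Cdh2 (1.40-fold) and the amine carrier gene Slc18a2 (means of 208 and 313 normalised reads). Esr2 had means of 553 in vitro and 724 in vivo, and Cdh2 of 574 and 803 normalised reads, above every member. Which cells these reads came from was not tested. The 4 granulosa markers with recovered reads summed to between 102 and 106 normalised reads in the in vitro libraries and between 120 (119.7) and 138 in the in vivo libraries. Of these 4, Krt8, a keratin gene, had mean levels of 36.4 and 62.5 normalised reads in vitro and in vivo (adjusted p = 0.114, limma voom). Kitl, the Kit ligand gene, had 39.4 and 42.5, the gap junction gene Gja1 had 17.8 and 18.2, and Kctd14 had 10.1 and 6.14. Limma voom called 0 of the 4. Over all 9 markers, Ccnd2 included, the summed means of the authors' deposited table were 7020 (7019.7) in vitro and 7229 in vivo. Most of both sums was Serpine2 alone, at 5350 (5349.6) mean normalised reads in vitro and 5169 in vivo, so they say little of the other markers. Of 8 cumulus cell markers 2 had values and 0 were called, and their sums ranged from 78.2 to 118 in vitro and from 78.4 to 167 in vivo. Most of these sums was Pfkp, a glycolysis gene, at 93.0 mean normalised reads in vitro and 117 in vivo. Ptgs2 had 10.2 and 8.32, so the sums say little of it. Of 21 theca and stroma markers 1 had values, the collagen gene Col4a1, at 31.3 mean normalised reads in vitro and 32.0 in vivo in the authors' deposited table. Of 12 blood and vessel markers 4 had values. Tek, an angiopoietin receptor, was 2.05-fold lower in vitro (adjusted p = 0.0338, limma voom) and Kdr, a receptor of vascular endothelial growth factor, 3.44-fold lower (adjusted p = 0.0138, limma voom). The authors' deposited table called Tek too, but not Kdr, for which it listed a probability of equal expression of 0.9996. Pecam1, an adhesion gene of vessels that was called in the authors' deposited table, was 1.51-fold lower there. Its means of 561 normalised reads in vitro and 849 in vivo were also above every member. The macrophage gene Cd68 had 14.1 mean normalised reads in vitro and 10.8 in vivo (adjusted p = 0.805, limma voom). All 16 oocyte markers had values, and the authors' deposited table called 3, all lower in vitro: Bmp15, Nlrp5 of the subcortical complex (2.89-fold) and Kit, the receptor of Kit ligand (1.84-fold), where 8.31% of all genes were called lower. The part of other cell types in the members' levels was not tested.

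The genes whose libraries followed each called member most closely were taken by Pearson's r on log2(normalised reads + 1) over the 6 libraries, among 5696 genes with a mean of at least 10 in a group. For Inhba they were Ctdsp2 (r = 0.981), Nr2c2 (0.979) and Ei24 (0.978). For Inha they were Naglu (r = 0.995), Srcrb4d (0.994) and Zbtb22 (0.989). For Gata4 they were Sort1 (r = 0.997), Tbc1d30 (0.994) and Duoxa2 (0.992). For Hsd3b1 they were Nos3 (r = 0.987), Lbx2 (0.984) and Cyct (0.984). Each r describes 6 points that fall into 2 groups and share library scale, and 0 of these 12 genes was a member or on a list above. Their sizes of change differed from the members': Ctdsp2 had 75.2 mean normalised reads in vitro and 49.1 in vivo in the authors' deposited table, a far smaller ratio than that of Inhba.

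**Figure D4:**
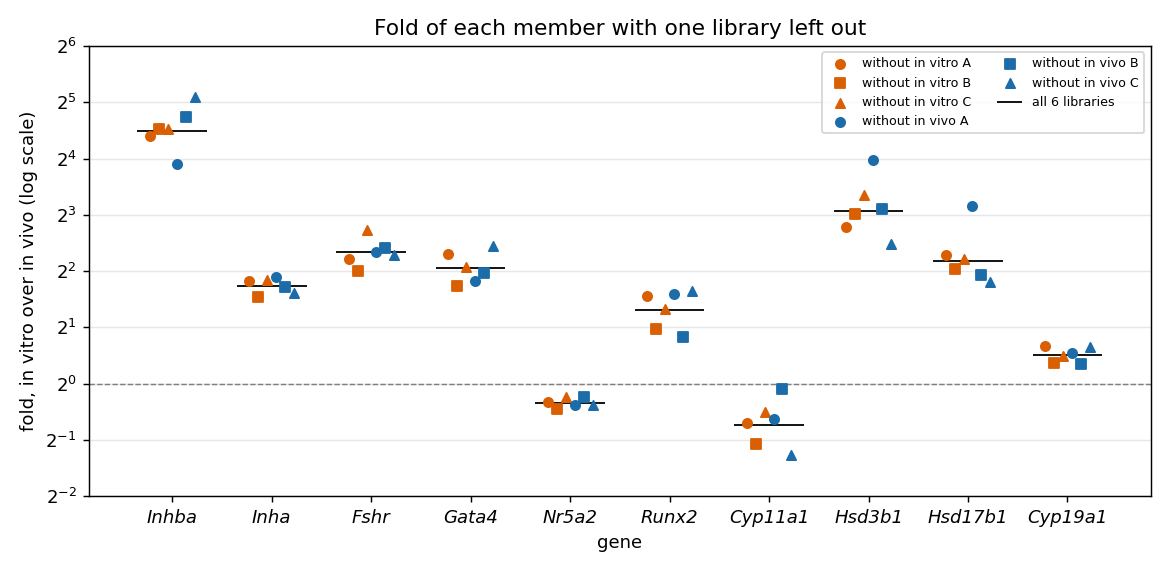
Fold of each member, in vitro over in vivo, from mean normalised reads on a log scale, with all 6 libraries (black lines) and with each library left out (symbols, coloured by the group of the library left out). Inhba ranges from 14.9 to 33.9 and Hsd3b1 from 5.59 to 15.8, while Inha stays between 2.89 and 3.71.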

How the data were processed

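RNA of 3 samples of oocytes grown in vitro and 3 grown in vivo was sequenced after cDNA amplification from 10 ng of total RNA, per the labels' protocols. The submitters' processing notes name BWA, without a version, and the build mm9, and the counting and the scaling are not given in the sources used here. The authors deposited a signal, the mean of normalised reads per gene and group, with a gene length, a log2 value for in vivo against in vitro (its sign is turned here) and a probability headed PPEE. The deposited log2 ratio was met by adding 0.599 to both means. PPEE was read as the posterior probability of equal expression, from the usual meaning of the term, and is not a p-value. A step per library was found from the lowest means, and whole reads were solved for 95.1% of means up to 200 in vitro and 95.4% in vivo. Randomly shifted means gave a solution in 0.866% and 1.30% of cases. The recovery and the test were tested on simulated data. Limma 3.58.1 (voom, 2-sided, Benjamini-Hochberg over 5804 genes) took library sizes in proportion to size factors, each the inverse of 3 times a library's step. Read counts carry no molecular identifiers. Gene-level spread between samples covers 3 libraries a group, and an exact permutation of 3 against 3 cannot go below 0.1. Strand is not given, so the members overlapped by another gene in RefSeq (Inhba, Runx2, Cyp11a1 and Cyp19a1) are less certain. The genes named were the 10 members, the called genes of each list (at most 8), fixed defining markers, and the 3 genes most like each called member. Others, such as neighbouring genes, Gata6, Zfpm2, Cbfb, Krt8, Kitl, Gja1, Kctd14, Serpine2, Ptgs2, Pfkp, Col4a1 and Cd68, were chosen after their values were seen. The members and all lists were chosen with earlier results of these data known. Alternatives were other thresholds, pseudocounts, scales and filters, limma-trend, and leaving out each library.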

Additional observations from a re-analysis of the deposited data

How the results depend on the processing

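The count of members called in the authors' deposited table was 5, and stayed at 5 with a probability below 0.01 or with a 2-fold minimum, and was 4 with a minimum of 10 for the average of both groups' means, which leaves out Fshr. On recovered reads 4 members were called, and the same 4 by limma-trend, by scaling on summed reads and with at least 10 reads. Leaving out each library in turn gave between 2 and 6 called members: Inhba and Inha in all 6 cases, Gata4 in 3, Hsd3b1, Runx2 and Cyp19a1 only without in vitro library A. The count over all genes was 370, and from 29 without in vitro library C to 1036 without in vitro library A. No paired analysis was possible because the recovered libraries carry no replicate number. Of 130 changed settings of single members, 0 turned a called direction, and the sign of Cyp11a1, which was not called, turned in 2 of its 15 values. A pseudocount of 10 lowered the log2 change of Inhba to 2.47, of Hsd3b1 to 1.51, of Fshr to 0.85 and of Hsd17b1 to 0.84. With 12 or fewer in vivo reads for Inhba, Fshr, Hsd3b1 and Hsd17b1, depth limits the size of their folds.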

Other observations

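A probability of equal expression of exactly 1, as listed for Hsd17b1 and Nr5a2, occurs for 1627 genes (14.9%) of the authors' deposited table. Of these, 149 had a deposited log2 change of at least 1 in size, and limma voom called 26 of the 1350 with recovered reads. Naglu, the neighbour of Hsd17b1, is among the 1627, with 19, 22 and 11 reads in the in vitro libraries and 3, 2 and 1 in the in vivo libraries.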
